A study of Mus musculus with 19 samples.

Results

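The nuclear genes that encode subunits of respiratory complexes II, III and IV and of the ATP synthase (complex V) were described in single mouse blastocysts. Members were taken by symbol (Sdha to Sdhd, and names starting with Uqcr, Cox4 to Cox8 or Atp5), leaving out 3 pseudogene names, which gave 45 of the 14173 listed genes: 4 of complex II, 8 of complex III, 15 of complex IV and 18 of complex V. Polyadenylated RNA was sequenced from 9 Padi6-mutant and 10 Control blastocysts, with 1 library per embryo. Per the series' design text, the mutant embryos came from oocytes carrying the P620A change in Padi6, a protein of the oocyte cytoplasm, and were those that had passed the block at the 2-cell stage, so they are survivors of a larger group. The labels give no strain, age, litter or paternal genotype, and Control embryos are named only as such. Embryos were taken as independent, and p-values would be too small where littermates are in 1 group. Each library holds a whole blastocyst, so fewer cells of a type and less RNA per cell cannot be told apart.

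Complexes II to IV pass electrons to oxygen in the inner mitochondrial membrane, and the ATP synthase uses the proton gradient that complexes III and IV help to build. Complex II is wholly encoded in the nucleus, whereas complexes III, IV and V each combine nuclear subunits with others made inside mitochondria, so their assembly needs matched supply from both genomes. The blastocyst is the stage at which mitochondrial respiration becomes prominent, with oxygen use rising as the trophectoderm pumps fluid into the cavity.

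Values are log2(scaled count + 1), scaled by the authors to a common upper quartile, so each level is relative to the rest of its library. A difference is Padi6-mutant minus Control, tested with limma over all genes and called at a Benjamini-Hochberg adjusted p under 0.05. Padi6-mutant libraries had 312 ± 191 listed genes at 0 (n = 9, ± SD), against 117 ± 76.2 in Control libraries (n = 10, ± SD). Spearman's rho between transcript length and a library's deviation from the gene means, across genes, lay between -0.43 and -0.09 in Padi6-mutant and between -0.12 and 0.40 in Control libraries. Short transcripts were thus relatively high in all 9 Padi6-mutant libraries and in Control 5 and 9. Summed primitive endoderm markers (6 of 8 listed) ranged from 13.5 to 14.2 in Padi6-mutant and from 13.5 to 15.9 in Control embryos, on the log2 scale. Those of the inner cell mass (7 of 8) ranged from 14.6 to 15.5 and from 15.0 to 16.0, and those of the trophectoderm (7 of 8) from 16.7 to 18.9 and from 17.7 to 18.6, with Padi6-mutant embryos first in each. Of the markers listed, 4 of 6 of the primitive endoderm and 2 of 7 of the inner cell mass were called lower in Padi6-mutant embryos, with median log2 fold changes of -1.99 and -0.93, and 0 of 7 of the trophectoderm were called. Over all genes 12.0% were lower. Once a trend on transcript length and GC content was taken out of each library, 1 of 6, 1 of 7 and 1 of 7 were lower. The share of all genes lower was then 10.3%. Medians were then -1.72, -0.82 and 0.07, in the same order. None of the 8 cumulus and granulosa markers is listed in the table. The part of these differences in lineage markers in the results was not tested.

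Of the 45 members, 37 rose in Padi6-mutant embryos and 0 fell, against 14.6% of all genes higher and 12.0% lower. The median log2 fold change of the members was 2.35, against -0.10 over all genes. All 9 Padi6-mutant embryos lay above the Control median in 38 members, against 14.5% of all genes. In 26 members every Padi6-mutant embryo lay above every Control embryo, against 2.67% of all genes. Complex IV was called throughout, with 15 of 15 higher. Complex V had 15 of 18 higher, complex III 5 of 8 and complex II 2 of 4. The 8 members that did not pass were Sdha, Sdhd, Uqcrc1, Uqcrc2, Uqcrfs1, Atp5f1a, Atp5f1b and Atp5f1d, with log2 fold changes between -0.37 and 0.43. They include the large catalytic or core subunits of complexes II, III and V. Once a trend on transcript length and GC content was taken out of each library, 30 of the 42 members with a known length were higher and 0 lower, against 10.7% of all genes higher and 10.3% lower. Their median log2 fold change was then 1.01. Calls and medians for other genes of like length are given further below. The counts of 38 and 26 members were not taken for such genes. They are set only against all genes, and the part of transcript length in them was not tested.

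**Figure D1:**
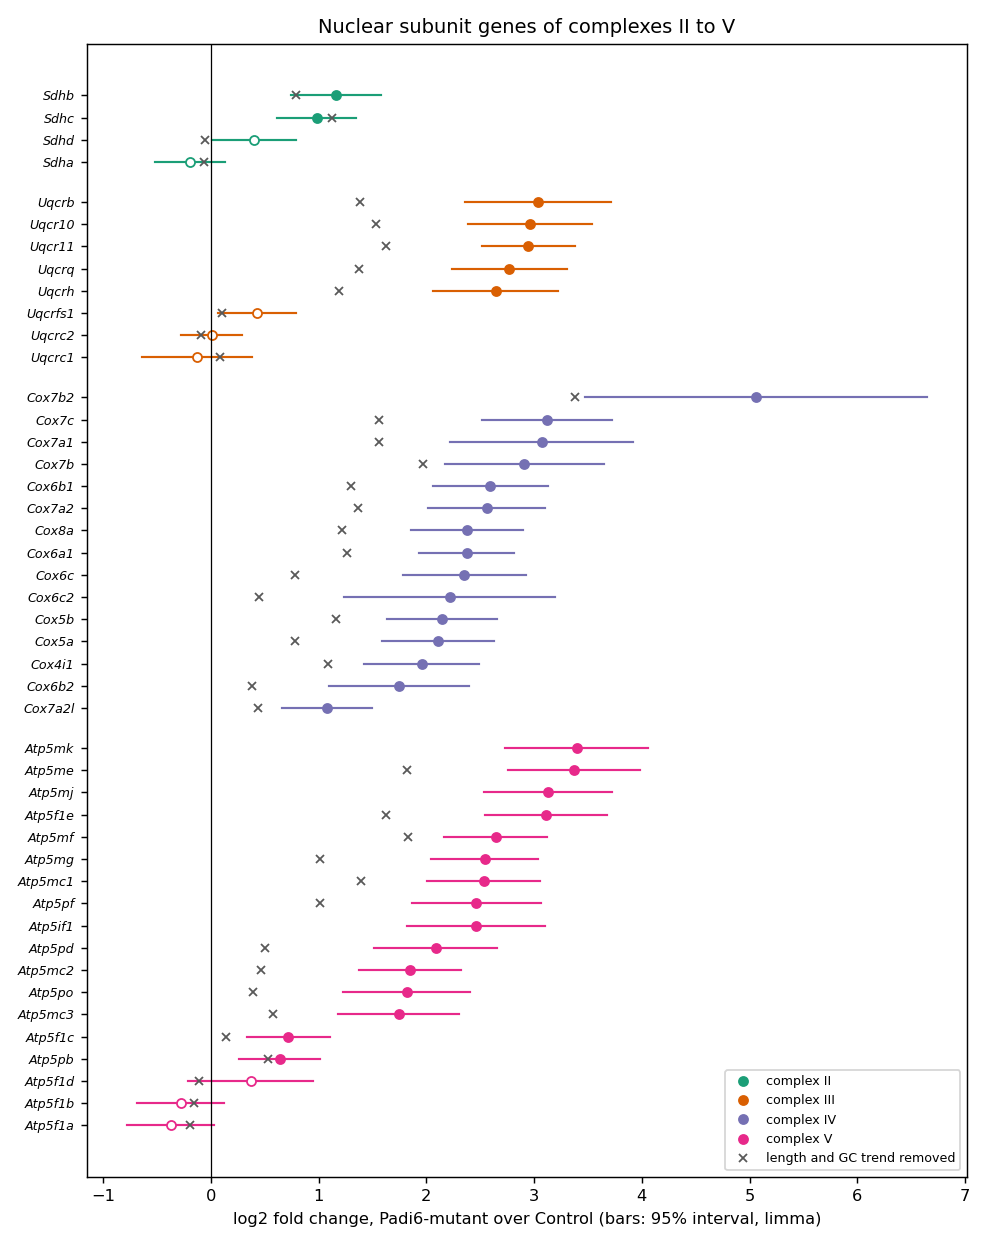
Log2 fold change of each of the 45 members (Padi6-mutant over Control, x axis) by complex, with the 95% interval of the limma fit; filled circles were called and open circles were not, and crosses give the value once the trend on length and GC was taken out. All 15 complex IV genes lie above 0, while the open circles lie between -0.37 and 0.43.

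Complex II oxidizes succinate to fumarate and hands the electrons to ubiquinone. Sdha, its flavoprotein, lay at 12.4, 13.2 and 13.5 in Padi6-mutant embryos (lowest, median, highest), against 12.6, 13.4 and 13.9 in Control embryos. The groups overlapped, and Sdha did not pass (log2 fold change -0.20, SE 0.16, adjusted p = 0.373). Sdhb, the iron-sulfur subunit, lay at 13.3, 13.6 and 13.7 in Padi6-mutant embryos, against 11.6, 12.3 and 13.4 in Control embryos, and rose 2.24-fold (log2 fold change 1.16, SE 0.20, adjusted p = 1.62e-04). Only Control 9 reached into the mutant range. Of the membrane anchors, Sdhc lay at 11.4, 11.7 and 12.2 in Padi6-mutant embryos, against 10.1, 10.8 and 11.4 in Control embryos. Its groups did not overlap, though the lowest mutant (11.43) and the highest Control embryo (11.38) were close, and it rose 1.97-fold (adjusted p = 2.81e-04). Sdhd lay at 11.9, 12.3 and 12.8 in Padi6-mutant embryos, against 11.1, 11.8 and 13.0 in Control embryos. All 9 Padi6-mutant embryos lay above the Control median of Sdhd, but it did not pass (0.40, SE 0.19, adjusted p = 0.123). It passed without Control 7 (0.52, adjusted p = 0.0220), and its sign turned once the trend on length and GC was taken out (-0.06), so no direction is read from it. Sdhc has the longest transcript of the members, 3171 nt, and its value without the trend was 1.13 (adjusted p = 1.42e-04).

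Genes for respiratory subunits are known to share binding sites of NRF1 and of ETS-family factors such as GABPA near their start sites. The promoters of Sdha, Sdhd, Uqcrc1 and Uqcr11 are shown because these 4 genes form the subunit pairs of complexes II and III compared later, and only Uqcr11 was called. Each runs from 250 bases before to 50 after the annotated start, from RefSeq on GRCm38.p6, an older build than the one in the labels. Capitals mark matches on either strand to GCGCANGCG (the NRF1 motif) or CCGGAAG (the ETS motif).
Sdha (chr13:74350191-74350490, minus strand): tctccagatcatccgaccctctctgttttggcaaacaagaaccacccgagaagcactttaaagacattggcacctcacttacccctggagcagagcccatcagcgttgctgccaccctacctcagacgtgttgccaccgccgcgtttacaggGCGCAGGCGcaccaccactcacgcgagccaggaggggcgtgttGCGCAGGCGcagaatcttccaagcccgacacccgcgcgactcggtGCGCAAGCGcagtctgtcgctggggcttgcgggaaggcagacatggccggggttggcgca
Sdhd (chr9:50603800-50604099, minus strand): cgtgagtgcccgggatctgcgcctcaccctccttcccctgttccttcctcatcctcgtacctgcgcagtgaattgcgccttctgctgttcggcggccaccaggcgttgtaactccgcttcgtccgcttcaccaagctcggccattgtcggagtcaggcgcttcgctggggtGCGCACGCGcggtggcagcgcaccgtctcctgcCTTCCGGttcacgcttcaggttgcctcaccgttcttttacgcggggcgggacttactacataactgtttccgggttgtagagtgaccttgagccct
Uqcrc1 (chr9:108936398-108936697, plus strand): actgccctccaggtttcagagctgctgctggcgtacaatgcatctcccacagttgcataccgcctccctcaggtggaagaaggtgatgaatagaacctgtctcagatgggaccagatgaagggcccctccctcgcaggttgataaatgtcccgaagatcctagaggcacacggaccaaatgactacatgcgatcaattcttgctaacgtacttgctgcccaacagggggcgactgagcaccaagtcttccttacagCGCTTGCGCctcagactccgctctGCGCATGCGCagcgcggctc
Uqcr11 (chr10:80406772-80407071, minus strand): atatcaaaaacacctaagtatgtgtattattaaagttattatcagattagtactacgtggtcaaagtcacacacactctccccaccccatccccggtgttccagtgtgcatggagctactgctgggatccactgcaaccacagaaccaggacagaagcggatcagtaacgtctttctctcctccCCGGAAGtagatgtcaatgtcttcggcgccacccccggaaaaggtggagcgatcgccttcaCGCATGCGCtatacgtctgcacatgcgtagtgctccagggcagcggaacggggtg
Sdha and Uqcrc1 each hold 3 NRF1 matches, of which 2 in Uqcrc1 share bases, and Sdhd and Uqcr11 each hold 1 match of each motif. Of the 34 members with a promoter in the table, matched by symbol or an older symbol, 11 (32.4%) held the NRF1 motif, against 6.47% of all 27025 promoters of this length. The ETS motif was also in 11, against 9.12% of all. The YY1 motif AAGATGGCG was in 1 of the 34, against 1.49% of all. No member had matches of different motifs that shared bases. The NRF1 motif was in 8 of 28 members that rose and in 3 of 6 that did not pass, and the ETS motif in 10 of 28 and 1 of 6. These matches describe letters in the window and not bound sites. The 27025 promoters also include genes outside the 14173 listed, so the shares compare unlike sets.

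Complex III moves electrons from ubiquinol to cytochrome c. Its 5 small subunits rose as a block, with log2 fold changes between 2.64 and 3.04 and no overlap between groups in any of them. Uqcr11, a small membrane subunit, had the smallest adjusted p: it lay at 13.8, 14.1 and 14.3 in Padi6-mutant embryos, against 10.4, 11.0 and 12.3 in Control embryos (2.95, SE 0.21, adjusted p = 1.16e-08). Every mutant embryo was above every Control embryo by more than 1 log2 unit. Uqcrb, which binds near the ubiquinone site, rose 8.23-fold (3.04, SE 0.33), and Uqcr10, another small membrane subunit, rose 7.81-fold (2.97, SE 0.28). Uqcrq rose by 2.77 (SE 0.26) and Uqcrh, the hinge protein that helps cytochrome c dock, by 2.64 (SE 0.28) on the log2 scale. Once the trend on length and GC was taken out, these 5 genes stood between 1.19 and 1.63 and all were called.

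The large subunits of complex III gave other values. Uqcrc1, a core protein related to the mitochondrial processing peptidase, lay at 13.7, 15.0 and 15.2 in Padi6-mutant embryos, against 13.8, 15.0 and 15.5 in Control embryos (-0.13, SE 0.25, adjusted p = 0.732). Its partner Uqcrc2 averaged 13.5 ± 0.17 in Padi6-mutant embryos (n = 9, ± SD) and 13.5 ± 0.31 in Control embryos (n = 10, ± SD), a log2 difference of 0.01 with a 95% interval of -0.28 to 0.29. Both groups overlapped across most of their range, and the sign of each value turned once the trend on length and GC was taken out, so no direction is read. Uqcrfs1, the Rieske iron-sulfur protein that passes electrons on to cytochrome c1, did not pass either (0.43, SE 0.18, adjusted p = 0.0739). It passed when Control 6, 7 or 9 or Padi6-mutant 7 was left out (highest adjusted p = 0.0459), and stood at 0.10 without the trend.

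**Figure D2:**
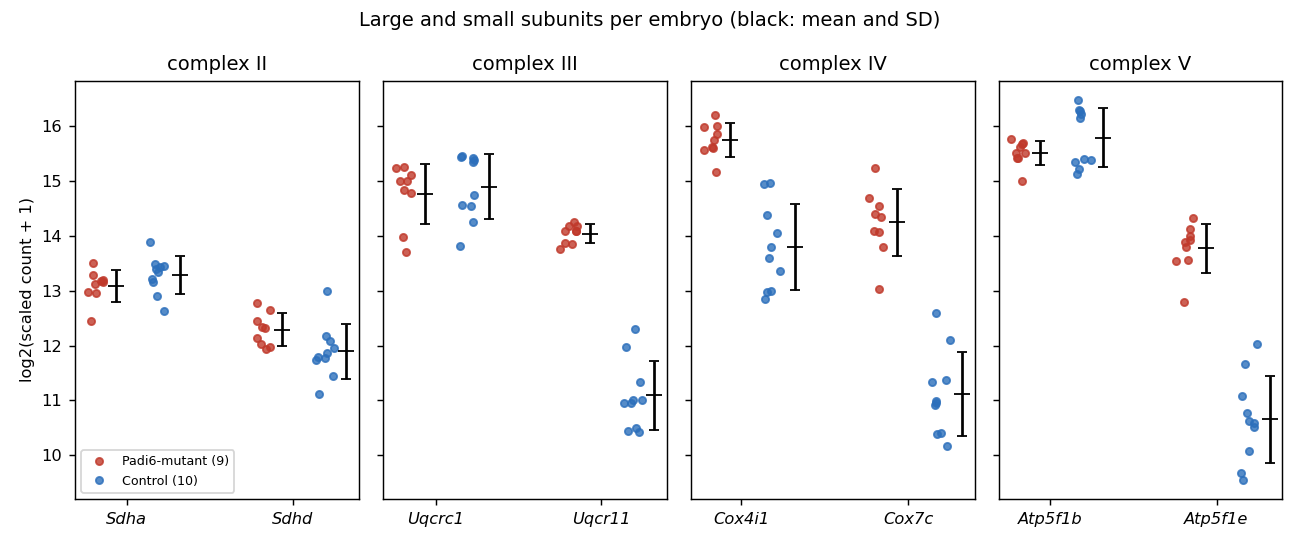
Levels per embryo, as log2(scaled count + 1), of a large and a small subunit of each complex, with Padi6-mutant embryos (red) left of Control embryos (blue); black marks give the mean and SD. The large subunits of complexes III and V overlap between groups, while Uqcr11, Cox7c and Atp5f1e do not.

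Complex IV, cytochrome c oxidase, reduces oxygen to water at a core made in mitochondria, and its nuclear subunits surround that core and adjust it. The 10 general isoforms rose, with log2 fold changes between 1.96 and 3.12, and in 9 of them the groups did not overlap. Cox6a1, at the dimer face, lay at 13.8, 14.2 and 14.9 in Padi6-mutant embryos, against 11.2, 11.6 and 12.8 in Control embryos (2.37, SE 0.21, adjusted p = 1.02e-07). Cox7c, a small membrane subunit, lay at 13.0, 14.3 and 15.2 in Padi6-mutant embryos, against 10.2, 11.0 and 12.6 in Control embryos (3.12, SE 0.29, adjusted p = 1.18e-07). Padi6-mutant 10 was the lowest mutant embryo for both genes, and Control 9 the highest Control embryo for both. Cox6b1, a subunit on the side where cytochrome c binds, rose 6.03-fold (2.59, SE 0.26), and Cox7a2, the general isoform of subunit 7a, rose 5.90-fold (2.56, SE 0.26). Cox4i1, the largest nuclear subunit and the site of ATP inhibition, lay at 15.2, 15.7 and 16.2 in Padi6-mutant embryos, against 12.9, 13.7 and 15.0 in Control embryos. It rose 3.88-fold (1.96, SE 0.26, adjusted p = 7.04e-06), with every Padi6-mutant embryo above the Control range.

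Among the other general isoforms, Cox5a (2.11), Cox5b (2.15), Cox6c (2.35), Cox7b (2.91) and Cox8a (2.38) rose. Once the trend on length and GC was taken out, the 10 stood between 0.78 and 1.97 and all 10 were called. Cox7b was highest in that comparison. Cox7a2l, which ties complexes III and IV into supercomplexes, rose less, by 1.08 (SE 0.20, adjusted p = 3.72e-04), and 5 of 9 Padi6-mutant embryos lay above all Control embryos.

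Isoforms known from other tissues were also listed. Cox7b2, described in testis, lay at 5.67, 6.94 and 8.41 in Padi6-mutant embryos, against 0, 1.79 and 4.95 in Control embryos. It was listed at 0 in 4 Control embryos and above 0 in all 9 Padi6-mutant embryos, and the groups did not overlap. Its log2 fold change was 5.06 (SE 0.77, adjusted p = 3.91e-05), and 3.21 with a pseudocount of 10 in place of 1, so its size depends on the pseudocount. Cox7a1, the heart and muscle isoform of subunit 7a, lay at 7.29, 9.10 and 10.0 in Padi6-mutant embryos, against 4.75, 5.71 and 7.25 in Control embryos, and rose 8.40-fold (adjusted p = 8.17e-06). Cox6b2, the testis isoform of subunit 6b, rose by 1.74 (SE 0.31, adjusted p = 2.47e-04). Cox6c2, which was not classed as a tissue isoform here, rose by 2.22 (SE 0.47). Its level was low, with means of 6.21 in Padi6-mutant and 3.99 in Control embryos, against 14.9 and 12.5 for Cox6c. Cox6b2 and Cox6c2 no longer passed once the trend on length and GC was taken out (0.38, adjusted p = 0.320, and 0.44, adjusted p = 0.449). Per kilobase of transcript, Cox7a1 supplied 3.72 ± 1.80% of the summed Cox7a1 and Cox7a2 counts in Padi6-mutant embryos (n = 9, ± SD) and 2.47 ± 0.83% in Control embryos (n = 10, ± SD). Cox7b2 supplied 1.70 ± 1.42% of Cox7b2 plus Cox7b in Padi6-mutant embryos and 0.52 ± 0.735% in Control embryos, on the same scale and n. Cox6b2 supplied 2.96 ± 0.85% of Cox6b2 plus Cox6b1 in Padi6-mutant embryos and 5.32 ± 2.06% in Control embryos. The general isoform held most of the counts per kilobase in each family, and its lowest share in any embryo was 91.0%, for Cox6b1 in a Control embryo.

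Complex V turns the proton gradient into ATP, with a catalytic F1 head, a rotor ring of c subunits and a peripheral stalk that holds the head still. Its 18 genes had a median log2 fold change of 2.27, and the 15 with a length one of 0.53 without the trend. The F1 head was split. Its alpha subunit Atp5f1a lay at 14.1, 14.8 and 15.0 in Padi6-mutant embryos, against 14.3, 15.2 and 15.9 in Control embryos (-0.37, SE 0.20, adjusted p = 0.166). Its catalytic beta subunit Atp5f1b lay at 15.0, 15.5 and 15.8 in Padi6-mutant embryos, against 15.1, 15.8 and 16.5 in Control embryos (-0.28, SE 0.20, adjusted p = 0.305). For both, 0 of 9 Padi6-mutant embryos lay above the Control median. Both passed as lower under quantile normalization, where 13.7% of all genes were lower (-0.79, adjusted p = 0.0127, and -0.78, adjusted p = 0.00965). They also passed as lower with library weights, where 2689 of 14173 genes were lower (-0.49, adjusted p = 0.0235, and -0.45, adjusted p = 0.0416). Without the trend on length and GC neither passed (-0.20, adjusted p = 0.385, and -0.16, adjusted p = 0.458). The rotor subunit Atp5f1d did not pass (0.37, SE 0.28, adjusted p = 0.348), and its sign turned without the trend. Atp5f1c, the central shaft, rose 1.65-fold (0.72, SE 0.19, adjusted p = 0.00607), and its call ended without the trend (0.14, adjusted p = 0.435), under quantile normalization (0.35, adjusted p = 0.164), with genes detected per library in the model (0.61, adjusted p = 0.0860) and without Padi6-mutant 6, 8, 9 and 10 (0.68, adjusted p = 0.0510). Atp5f1e, the epsilon subunit at the foot of the shaft, lay at 12.8, 13.9 and 14.3 in Padi6-mutant embryos, against 9.55, 10.6 and 12.0 in Control embryos. It rose 8.65-fold (3.11, SE 0.27, adjusted p = 8.98e-08) with no overlap between groups, and stood at 1.63 without the trend.

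The small membrane subunits of complex V, several of which help to hold the enzyme in dimers at the edges of cristae, rose by 2.54 to 3.39 on the log2 scale, and Atp5mk had the highest log2 fold change of the complex. Atp5me, subunit e, lay at 12.1, 13.5 and 13.8 in Padi6-mutant embryos, against 8.79, 9.84 and 11.1 in Control embryos (3.37, SE 0.29, adjusted p = 8.98e-08). Atp5mf, subunit f, lay at 13.0, 13.7 and 14.2 in Padi6-mutant embryos, against 10.2, 11.0 and 12.3 in Control embryos (2.64, SE 0.23, adjusted p = 8.98e-08). Neither gene overlapped between groups. Atp5mj rose by 3.13 (SE 0.29), Atp5mk by 3.39 (SE 0.32) and Atp5mg, subunit g, by 2.54 (SE 0.24), all without overlap. Without the trend Atp5me stood at 1.82, Atp5mf at 1.83 and Atp5mg at 1.02, while Atp5mj and Atp5mk had no length in the annotation used. Atp5if1, the inhibitor that stops the enzyme from running backwards, rose 5.51-fold (2.46, SE 0.31, adjusted p = 3.60e-06), also with no length.

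All 4 peripheral stalk subunits rose, namely Atp5pf (2.46), Atp5pd (2.09), Atp5po (1.82) and Atp5pb (0.64). The call of Atp5pb (adjusted p = 0.0113) ended under quantile normalization (0.28, adjusted p = 0.249), with genes detected per library in the model (0.52, adjusted p = 0.131) and without Padi6-mutant 6, 8, 9 and 10, the 4 libraries above 400 genes at 0 (0.57, adjusted p = 0.0959). Without the trend Atp5po stood at 0.39 (adjusted p = 0.0810), Atp5pd at 0.50, Atp5pf at 1.01 and Atp5pb at 0.53, and the last 3 were called. The genes Atp5mc1, Atp5mc2 and Atp5mc3 encode the same mature c subunit behind different import signals. They rose by 2.53 (SE 0.25), 1.85 (SE 0.23) and 1.74 (SE 0.27), and without the trend stood at 1.39, 0.46 and 0.58, all still called. Per kilobase, Atp5mc1 supplied 61.0 ± 4.21% of their summed counts in Padi6-mutant embryos (n = 9, ± SD) and 48.3 ± 4.75% in Control embryos (n = 10, ± SD). Atp5mc2 supplied 19.9 ± 3.70% and 25.3 ± 5.01%, and Atp5mc3 19.1 ± 3.11% and 26.4 ± 6.46%, in Padi6-mutant and Control embryos. Mature products of these 3 genes cannot be told apart in the ring, and their reads could be split between similar sequences in the counting.

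To ask whether subunits of 1 complex moved by unequal amounts, the log2 difference between a large or catalytic and a small subunit was taken within each embryo, which cancels the scaling of the library. Each of the 4 pairs was compared by an exact two-sided permutation of the embryos (92378 splits), with p-values adjusted across pairs. The pairs were chosen when differences between these groups were already known to go with transcript length. In each pair the first gene has the longer transcript. The p-values thus cannot tell unequal movement of subunits from that trend. Fold changes of the members still went with length once the trend was taken out, as given below. Uqcrc1 minus Uqcr11 averaged 0.73 ± 0.51 in Padi6-mutant embryos (n = 9, ± SD) and 3.80 ± 1.16 in Control embryos (n = 10, ± SD). The shift was -3.08 (exact permutation p = 3.25e-05, adjusted p = 4.33e-05), and the groups did not overlap. Atp5f1b minus Atp5f1e averaged 1.74 ± 0.57 in Padi6-mutant embryos and 5.13 ± 1.22 in Control embryos, a shift of -3.39 with the same exact permutation p and again no overlap. Cox4i1 minus Cox7c averaged 1.50 ± 0.52 in Padi6-mutant embryos and 2.67 ± 0.41 in Control embryos. This shift was -1.17, with the same exact permutation p, and 8 of 9 Padi6-mutant embryos lay below the Control range. Sdha minus Sdhd averaged 0.80 ± 0.33 in Padi6-mutant embryos and 1.40 ± 0.66 in Control embryos, a shift of -0.59 (exact permutation p = 0.0210, adjusted p = 0.0210). Without the trend on length and GC the shifts were -1.54 for complex III (exact permutation, adjusted p = 1.30e-04), -1.79 for complex V (adjusted p = 8.66e-05) and -0.47 for complex IV (adjusted p = 0.0316). The shift of complex II was -0.0063 by then (exact permutation, adjusted p = 0.973), and it did not pass when the 4 Padi6-mutant libraries with the most genes at 0 were left out (-0.62, adjusted p = 0.0779).

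The members' fold changes went with transcript length. Across the 42 members with a length, which are not independent, Spearman's rho between length and log2 fold change was -0.74, and -0.52 without the trend. Members that rose had a median length of 548.5 nt (231 to 3171 nt), and those that did not pass one of 1774.5 nt (931 to 2900 nt). Of the 20 members with transcripts under 600 nt, 20 rose with a median of 2.59, against 50.1% of 894 other genes of that length with a median of 1.39. Between 600 and 1000 nt, 8 of 9 members rose with a median of 2.15, against 47.5% of 1129 other genes with a median of 0.97. Above 1000 nt, 6 of 13 members rose with a median of 0.43, while 8.15% of 11571 other genes were higher and 14.1% lower, with a median of -0.20. Without the trend, 17 of those 20, 8 of those 9 and 5 of those 13 members were higher. Of the other genes in the same classes, 176 of 894, 244 of 1129 and 1003 of 11571 were higher. Another 222, 185 and 996 of them were lower. The shares higher under 600 nt and between 600 and 1000 nt lie above the 10.7% of all genes. Medians without the trend were 1.32, 1.09 and 0.10 for members and -0.16, 0.03 and -0.07 for other genes. The removed trend was itself fitted partly on the members. With a trend fitted only on genes outside the members and outside ribosomal protein and complex I genes, an alternative chosen after the data were seen, 31 of 42 members were higher, 0 lower, against 11.6% of all genes higher and 9.39% lower.

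**Figure D3:**
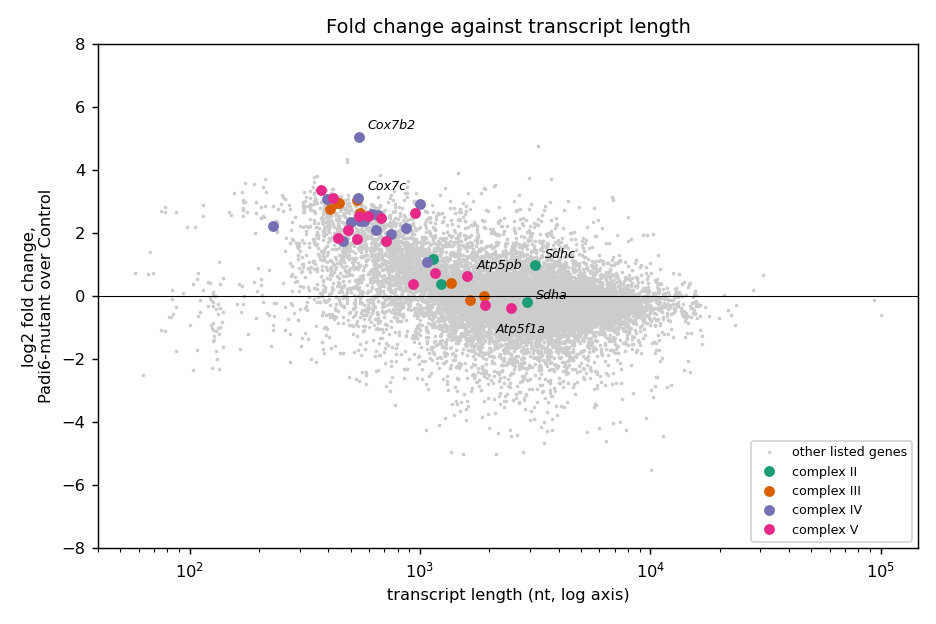
Log2 fold change (Padi6-mutant over Control) against transcript length on a log axis, for all listed genes with a length (grey) and for 42 members coloured by complex. Members under 600 nt lie between 1.74 and 5.06, and the long transcripts of Sdha and Atp5f1a lie below 0 while that of Sdhc lies at 0.98.

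The embryos of each group differed in a shared way across complexes. The mean over all 45 members was 13.5 ± 0.24 in Padi6-mutant embryos (n = 9, SD, 13.0 to 13.8) and 11.5 ± 0.55 in Control embryos (n = 10, SD, 10.8 to 12.5). Control 5 or 9 was the highest Control embryo for 37 of the 45 members, Control 1 the lowest for 28, and Padi6-mutant 10 the lowest of its group for 25. Such ranks were not counted over all genes or over other genes of like length, so they are not read as a trait of the members. Control 5 and 9 are also the Control libraries with the lowest rho between length and deviation, -0.12 in both, while Control 1 had the highest, 0.40. The means of complex II lay between 12.3 and 12.9 in Padi6-mutant and between 11.7 and 12.7 in Control embryos, and the groups overlapped. The means of complexes III, IV and V did not overlap between groups. Those of complex IV were 12.6 ± 0.34 in Padi6-mutant (n = 9, ± SD) and 10.1 ± 0.67 in Control embryos (n = 10, ± SD).

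**Figure D4:**
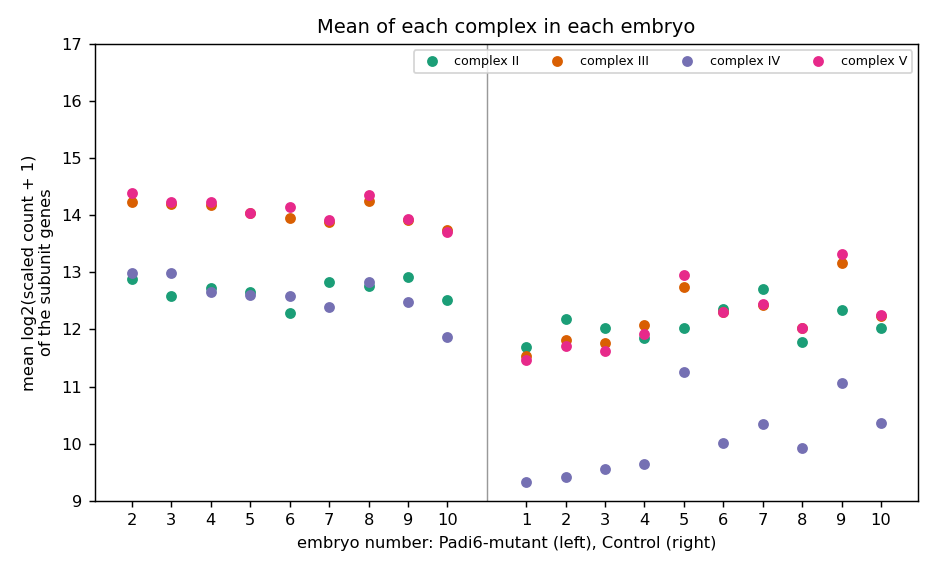
Mean log2(scaled count + 1) of the subunit genes of each complex in each embryo, with Padi6-mutant embryos left of the grey line and Control embryos right of it. Control 5 and 9 lie above the other Control embryos for complexes III, IV and V, and Padi6-mutant 10 is lowest for the same complexes.

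Other genes of the pathway were followed in lists of assembly factors, electron carriers and mitochondrially encoded subunits. Of 40 measured assembly factors, 25 rose and 1 fell, with a median of 1.02, against 14.6% of all genes higher and 12.0% lower. With the trend taken out 21 of 37 were higher and 1 lower, against 10.7% and 10.3% of all genes, and the median was 0.66. All 4 factors of complex II rose, with Sdhaf4, a chaperone of the flavoprotein, at 2.23, Sdhaf3 at 1.04 and Sdhaf2, which inserts the flavin, at 0.52. Of 9 factors of complex III, 6 rose, led by Uqcc6 (2.36), Uqcc2 (2.75) and Uqcc5 (2.47). Of 22 factors of complex IV, 13 rose. Cox17, the copper chaperone, rose by 2.54 (SE 0.23), Higd1a by 2.38 (SE 0.23) and Pet100 by 2.64 (SE 0.31). Without the trend they stood at 0.87, 0.90 and 2.17. The 1 that fell, Lrpprc, which stabilizes mitochondrial messengers, was named after its value was seen (-0.40, adjusted p = 0.0418), and it did not pass without the trend (-0.26, adjusted p = 0.0892). The 1 lower without the trend was a different factor of complex IV, Cox11 (-0.50, adjusted p = 0.0324), also named after its value was seen. Cox11 did not pass in the main fit (-0.05, adjusted p = 0.86). Of 5 factors of complex V, Fmc1 (2.78) and Tmem242 (1.27) rose, and the F1 chaperone Atpaf2 did not pass (-0.50, adjusted p = 0.181).

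Cytochrome c itself, Cycs, rose 4.61-fold without overlap between groups (2.21, SE 0.26, adjusted p = 1.95e-06), and stood at 2.19 without the trend. Cyc1, the cytochrome c1 subunit of complex III that the name rule does not match, rose by 0.53 (SE 0.18, adjusted p = 0.0337). Its call ended when Control 1, 3, 4 or 8 or Padi6-mutant 4, 5, 8, 9 or 10 was left out (highest adjusted p = 0.0670). It also ended under quantile normalization (0.36, adjusted p = 0.155). Without the trend Cyc1 stood at 0.61 and was called (adjusted p = 0.00985). Ndufa4, a subunit tied to complex IV, rose by 3.19 (SE 0.32), and stood at 1.44 without the trend. Of the 6 mitochondrially encoded subunits of complexes III to V, mt-Cytb (0.89, adjusted p = 0.0430) and mt-Co2 (0.86, adjusted p = 0.0230) rose, and 0 of 6 were higher and 2 lower without the trend. Within embryos, the mean of the nuclear subunits minus that of the mitochondrially encoded ones shifted by 1.95 on the log2 scale in complex IV, 1.31 in complex V and 0.94 in complex III, a description with no test. The mitochondrially encoded levels were very unequal. Padi6-mutant means were 17.9 for mt-Cytb and 18.4 for mt-Co1, but 10.4 for mt-Co2 and 10.1 for mt-Co3. Those of mt-Atp6 and mt-Atp8 were 10.5 and 5.46. Each transcript weighed equally in the mean, and why some were so low was not tested, so these shifts are uncertain.

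Of the pseudogene names left out, Atp5l2-ps (2.99) and Cox5b-ps (1.96) were called higher and Atp5pb-ps was not (0.66, adjusted p = 0.131). How reads that match a gene and its copies were counted is not given in the sources used here, so the levels of genes with such copies are uncertain.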

How the data were processed

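Each library holds the polyadenylated RNA of 1 blastocyst, amplified by template switching with 17 PCR cycles and read as paired 75-nt reads, per the labels' protocols. Trim Galore 0.4.4, HISAT2 2.1.0 and the GRCm39 build are named in the submitters' processing notes. The counting tool, the annotation and the use of strand are not given in the sources used here. The authors deposited 1 table of log2 values, which turned back into whole scaled counts plus 1 (within 1.96e-07) with the same upper quartile of 2322 in all 19 libraries. The labels give a mean depth of 4.2 M reads. The depth of each library is unknown, so no counting interval is given. All 19 value columns were used, and no 2 libraries looked like copies (highest Spearman's rho 0.972).

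All 14173 genes, each above 0 in at least 9 libraries, were fitted with limma 3.58.1 (lmFit, eBayes with trend, R 4.3.3) on genotype alone. Python 3.11.15 made the tables. P-values were two-sided and adjusted by Benjamini-Hochberg over all genes. No filter on low values was applied. The trend on length and GC content was a lowess curve (span 0.3) per library, for 13636 genes with a transcript length from GENCODE M21 on GRCm38. No length was found for Atp5if1, Atp5mj and Atp5mk. For 11226 genes the length was that of the shortest transcript marked as principal. For the rest it was that of the longest protein-coding transcript, or the longest of any type. Some members have far longer forms, such as Atp5mg (544 nt used, 6310 nt longest), and values that use length depend on this choice. The fit and the permutation test were tested on simulated data.

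The members, subunit pairs and gene lists were chosen with earlier results of these data known. Genes named were all of complexes II and III, in complexes IV and V the 4 with the smallest adjusted p, those not called and the isoform and subunit pairs, and up to 3 with the smallest adjusted p per other list, with Cyc1, Cycs and Ndufa4. Lrpprc, Cox11 and the pseudogene names fall outside this rule. Further members of complexes IV and V are named to account for each one. Alternatives covered scaling, pseudocount, low genes, length and GC, detected genes, library weights, the eBayes trend, a replicate block and leaving out libraries. The NRF1 and YY1 motifs were each shortened by 1 letter after a first search had been seen, so their shares are a description only.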

Additional observations from a re-analysis of the deposited data

Results flagged for a closer look

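In 98 sets of values, each a member or subunit pair within 1 group, the embryo at either end was set against its nearest neighbour, and 6 sets held an embryo that stood apart. Chance flags about 1 in 20 such sets. All 6 were the lowest Padi6-mutant embryo of their set. Padi6-mutant 6 was low for Sdhb (13.3, next 13.5), Atp5f1a (14.1, next 14.6) and Atp5f1b (15.0, next 15.4). Padi6-mutant 10 was low for Cox6b1 (13.8, next 14.6) and Atp5mc2 (11.9, next 12.5). These 2 libraries also had the most genes at 0, 596 in Padi6-mutant 6 and 551 in Padi6-mutant 10, and the part of this in the low values was not tested. Padi6-mutant 2 had the lowest Cox4i1 minus Cox7c (0.35, next 1.27).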

How the results depend on the processing

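Between 30 and 39 members were called higher under every alternative run, of 41 to 45 tested. Leaving out single embryos gave 37 to 39. Shares of all genes called higher were taken only for the main fit, the trend on length and GC, and the trend of other genes. The other counts, also those under the replicate block below, have no such share beside them and cannot be set against all genes. The number called lower was 0 except under quantile normalization and with library weights, where it was 2 of 45, both of the 18 in complex V (Atp5f1a and Atp5f1b). The shifts of the pairs in complexes III, IV and V passed under all alternatives run. Sdha minus Sdhd did not pass once the trend on length and GC was taken out (-0.0063), with the trend of other genes (-0.033, chosen after seeing the data), or without Padi6-mutant 6, 8, 9 and 10, the libraries above 400 genes at 0 (-0.62), nor under the replicate block given below. Signs turned in members that were not called. Sdhd went to -0.057 without the trend and -0.017 without that of other genes. Uqcrc1 went to 0.089 and 0.10 under the same settings and to 0.22 with detected genes as covariate. Uqcrc2 went to -0.094 and -0.088 under the same settings, -0.14 under quantile normalization and -0.0038 with detected genes as covariate. Atp5f1d went to -0.11 and -0.038 under the same settings. Leaving out 1 embryo at a time gave -0.25 to 0.0031 for Uqcrc1 and -0.038 to 0.068 for Uqcrc2. The cause of these changes was not tested.

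Embryos of the 2 groups share numbers in their titles. Same-numbered embryos deviated with correlations from -0.07 to 0.15, and 1 of 9 correlated best with its own number, so the numbers do not pair them. With the replicate block 36 members were higher and 0 lower, and Uqcrc2 was -0.03. Sdha minus Sdhd was -0.44 and did not pass (exact sign-flip test, adjusted p = 0.0664). The block with the trend taken out gave 30 of 42 higher, 0.081 for Sdha minus Sdhd with its sign turned (exact sign-flip test, adjusted p = 0.570), -0.090 for Sdhd, 0.12 for Uqcrc1, -0.11 for Uqcrc2 and -0.13 for Atp5f1d.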

Other observations

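Padi6-mutant embryos varied less than Control embryos in the level of these genes. The SD was smaller in Padi6-mutant embryos for 44 of 45 members, against 55.1% of all genes, and the median SD over the members was 0.35 in Padi6-mutant and 0.77 in Control embryos on the log2 scale. This is a description with no test, and the members are not independent of each other. Control libraries also spread more widely in rho between length and deviation, from -0.12 to 0.40, against -0.43 to -0.09 in Padi6-mutant libraries. Smaller SDs were not counted without the trend or in other genes of like length. The part of the length trend in this spread was not tested, so it is not read as a trait of these genes.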
